A study of Homo sapiens with 61 samples.

Results

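The genes described here are the chains of integrins, laminins and collagens, followed through every group of a study of human neurons exposed to vincristine. They were chosen by symbol alone, as all protein-coding genes whose names take the form of an integrin α or β chain, a laminin α, β or γ chain, or a collagen chain. The rule took 87 of 58440 gene identifiers, namely 44 collagens, 18 integrin α chains, 8 integrin β chains, 12 laminins and 5 genes that only share the start of a symbol (COL4A3BP, ITGB1BP1, ITGB1BP2, ITGB3BP and ITGBL1), which are counted apart. Of these, 59 passed the filter on low counts in experiment 1 and 67 in experiment 2, with 57 in both. The 18 that passed in neither, such as ITGB3, ITGB4, ITGB6, LAMA3 and COL6A3, did not go above 2.19 CPM (read counts scaled to the total of each library) in any library.

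Integrins are receptors at the cell surface made of an α and a β chain, and they link the matrix outside the cell to the cytoskeleton inside. Laminins are trimers of an α, a β and a γ chain that build the basement membrane. Collagens are triple helices that form fibrils, networks or short spans between other fibres. In neurons, integrins and laminins are known for their part in the outgrowth and guidance of axons and in the repair of peripheral nerve.

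All cells were grown from the human pluripotent line WTC11, an established line of reprogrammed cells, and were turned into cortical-type neurons by NGN2, a transcription factor that drives neuronal fate. In experiment 1 the lines carried a doxycycline-driven NGN2 cassette and were wild type (WT), a knockout (KO) of DLK, a KO of LZK, or a KO of both (double KO). DLK (MAP3K12) and LZK (MAP3K13) are kinases of the stress pathway that leads to JNK. In experiment 2 all cells carried the CRISPR interference machinery, which silences a promoter without cutting it, and a guide RNA (gRNA), brought in by lentivirus, that targets ATF2 or JUN or has a scrambled sequence (Control gRNA). ATF2 and JUN are transcription factors downstream of JNK. At day 14 each line received 5 nM vincristine, which destabilises microtubules, or DMSO vehicle (called untreated) for 16 hours. Each of the 8 groups of experiment 1 held 4 libraries. Each of the 6 groups of experiment 2 held 5, except ATF2 gRNA with vincristine, which held 4 (replicates 2 to 5). Each line stands for 1 genotype, and the number of clones per genotype is not given in the sources used here, so a difference between lines cannot be told apart from one between clones. The labels do not say whether libraries of a group came from separate cultures, so p-values measure the spread between these libraries only.

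Total counts ran from 8410729 to 14647819 per library in experiment 1 and from 38925807 to 88392414 in experiment 2, and levels are compared within an experiment only. MAP3K12 stood at 28.9% of WT in untreated DLK KO, MAP3K13 at 32.2% in LZK KO, ATF2 at 0.425% of Control gRNA in ATF2 gRNA and JUN at 3.21% in JUN gRNA (fitted values). A list of 9 neuron markers summed to between 3908 and 7333 CPM in every library. Endothelial markers summed to at most 3.56 CPM and microglia markers to at most 2.58. In bulk RNA, fewer cells of a type and less RNA per cell cannot be told apart. Among the 4 WT libraries with vincristine, replicate 4 stood apart. It was the lowest of the 4 for 23 of the 41 member genes with a group mean of at least 1 CPM, and its collagens summed to 256 CPM against 437, 515 and 529 in the others. COL6A1 stood at 134 CPM in it against 313, 313 and 249, and LAMA5 at 36.6 against 96.3, 75.6 and 85.5. The results for vincristine in WT are therefore also given without that library.

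The stretches of genome before the start sites of the integrin genes that carry most of the results are shown first, since these genes moved together with vincristine and the study silenced ATF2 and JUN, which bind DNA. The sequences are RefSeq promoter windows on GRCh38.p14, printed 5′ to 3′ on the strand of the gene and ending at the GENCODE 29 gene start where the window ran past it. Capitals mark GGGCGG, the GC box, on either strand.
ITGA8 (chromosome 10, 15720126 to 15720172, minus strand, 47 bases): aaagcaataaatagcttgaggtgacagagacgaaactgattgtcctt
ITGAV (chromosome 2, 186589806 to 186590055, plus strand, 250 bases): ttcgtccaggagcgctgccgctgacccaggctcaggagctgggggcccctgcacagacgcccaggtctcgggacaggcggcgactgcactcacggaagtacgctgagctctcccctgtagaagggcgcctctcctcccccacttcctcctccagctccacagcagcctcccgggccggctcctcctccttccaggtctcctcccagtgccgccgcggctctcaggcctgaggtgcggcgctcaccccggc
ITGA6 (chromosome 2, 172427086 to 172427335, plus strand, 250 bases): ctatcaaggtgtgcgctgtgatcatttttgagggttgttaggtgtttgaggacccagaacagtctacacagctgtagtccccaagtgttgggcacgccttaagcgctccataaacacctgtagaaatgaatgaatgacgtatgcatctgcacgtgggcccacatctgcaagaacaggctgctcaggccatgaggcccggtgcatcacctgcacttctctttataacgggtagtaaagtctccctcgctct
ITGB8 (chromosome 7, 20330650 to 20330701, plus strand, 52 bases): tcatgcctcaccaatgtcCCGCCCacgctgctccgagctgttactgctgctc
The stretch of ITGAV was 70.8% G or C and that of ITGA6 50.8%. RefSeq windows of 300 bases were found for 62 of the 87 genes, 82 windows in all. TGANTCA, the motif of AP-1 dimers such as those of JUN, was in 4 of them (COL10A1, ITGA5, LAMA3 and LAMB3, 4.88%), against 7.71% of all 35116 windows. TGACGTCA, the motif that ATF2 dimers are known to bind, was in 0 of them, against 1.85% of all windows. The GC box was in 45 of the 82 (54.9%), against 45.0% of all windows. Both strands were searched and the motifs do not overlap one another. A match says only which letters are present.

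Levels between genes were compared in untreated cells as CPM per kb of the length given with each gene. In WT, COL6A1, a chain of the beaded filaments of type VI collagen, had the highest level, at 48.1 ± 2.82 CPM per kb (SD, n = 4). ITGB1, the β chain shared by many integrins, followed at 24.6 ± 0.979. LAMB1 stood at 7.54 ± 0.502 and LAMC1 at 5.52 ± 0.354, and LAMA5 at 4.13 ± 0.282. These 3 are chains of one common laminin trimer. Among α chains ITGA7 and ITGA3, both α chains of laminin receptors, led at 3.41 ± 0.233 and 3.26 ± 0.147, ahead of ITGAE at 2.76 and ITGAV at 1.75. The pair of ITGA7 and ITGA3 and the pair of COL26A1 (5.71 ± 0.394) and LAMC1 did not differ beyond their SDs. ITGB8 at 4.75, COL7A1 (anchoring fibrils) at 4.73 and COL11A1 (a minor chain of cartilage-type fibrils) at 4.22 likewise lay within their SDs of a neighbour. In Control gRNA the order again began with COL6A1 at 65.0 and ITGB1 at 21.0, followed by COL27A1, a fibrillar collagen, at 17.6 ± 0.880. LAMB1 stood there at 14.1, COL26A1 at 14.0, LAMC1 at 7.78 and LAMA5 at 6.04, and LAMB1 and COL26A1 did not differ beyond their SDs. ITGB7, the only known partner of ITGAE, passed the filter in neither experiment.

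**Figure D1:**
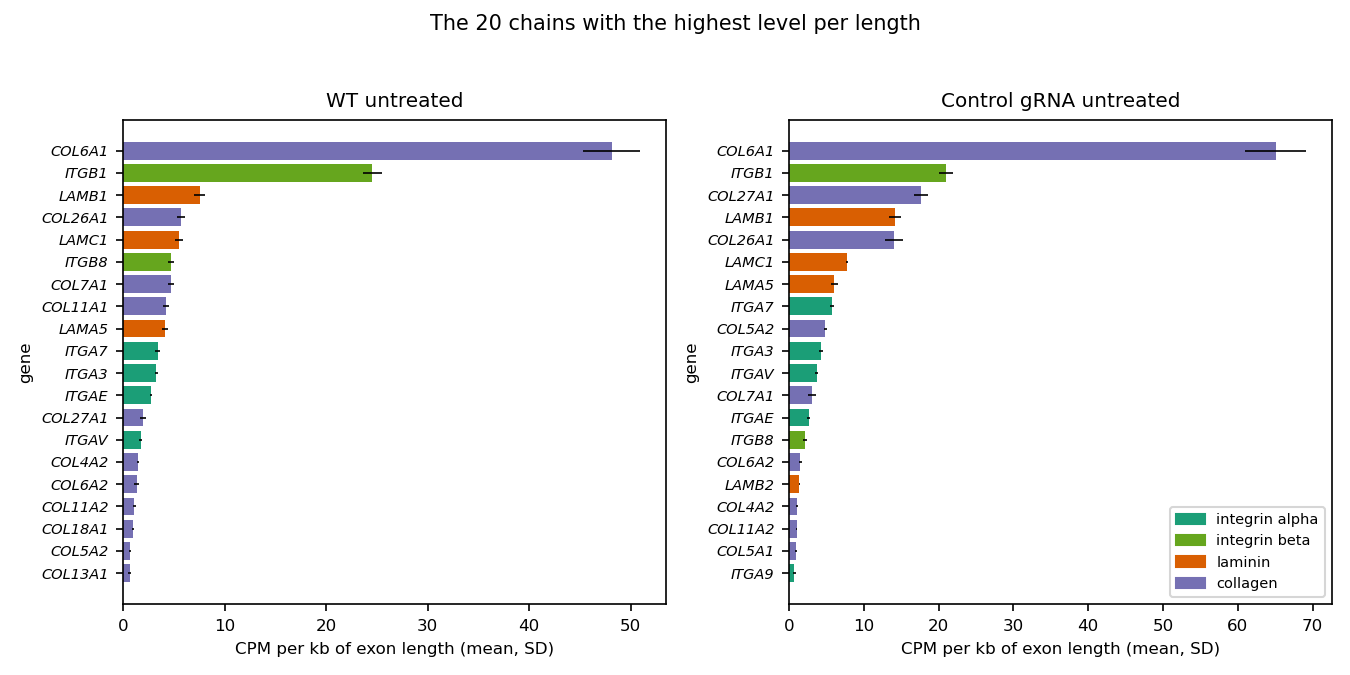
Levels of the 20 integrin, laminin and collagen chains with the highest CPM per kb of exon length in untreated WT (experiment 1, n = 4) and untreated Control gRNA (experiment 2, n = 5). Bars are means and whiskers SDs on a linear axis from 0. COL6A1 is the highest in both, at 48.1 and 65.0 CPM per kb, and ITGB1 the second, at 24.6 and 21.0.

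The first comparison asks what vincristine did to these genes in cells with an intact pathway. In both WT and Control gRNA, 3 integrin α chains (ITGA8, ITGAV and ITGA6) and ITGB8 rose, while the fibrillar collagens COL27A1 and COL11A1 fell. In WT 13 of 59 member genes were called, 5 higher and 8 lower, by edgeR's quasi-likelihood test at an adjusted p under 0.05. Of all genes tested, 30.2% were called, 15.7% higher and 14.5% lower. In Control gRNA 26 of 67 were called, 18 higher and 8 lower, against 35.3% of all genes (17.1% higher, 18.1% lower). The median log2 fold change of the members was -0.04 in WT and 0.28 in Control gRNA, and the medians over all genes lay between -0.04 and 0.03 in each of the 19 comparisons. Integrins were called in 6 of 16 cases in WT (4 higher) and in 11 of 18 in Control gRNA (9 higher). Laminins were called in 2 of 9 and 4 of 11, and collagens in 5 of 29 (all lower) and 9 of 33 (5 higher).

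ITGA8 (ENSG00000077943.7, GRCh38 chromosome 10, 15513949 to 15720125) encodes the α chain that pairs with ITGB1 in a receptor for nephronectin. It stood at 0.669, 0.746, 1.05 and 0.596 CPM in the untreated WT libraries and at 10.0, 8.09, 9.65 and 8.63 with vincristine. The groups were far apart, and ITGA8 rose by 3.51 ± 0.25 on the log2 scale (SE; 11.4-fold; edgeR adjusted p = 7.2e-14). In Control gRNA it stood at 1.93, 2.57, 1.69, 1.23 and 1.90 CPM untreated and at 9.95, 11.1, 9.44, 8.35 and 10.6 with vincristine, again with no overlap (2.41 ± 0.22, edgeR adjusted p = 1.7e-12).

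ITGAV (ENSG00000138448.11, chromosome 2, 186590065 to 186680901) encodes the αv chain, which pairs with several β chains, ITGB1, ITGB5 and ITGB8 among them, and binds fibronectin, vitronectin and latent TGF-β. In WT it went from 15.7, 12.7, 14.7 and 14.4 CPM to 39.9, 38.4, 41.4 and 48.5, and in Control gRNA from 30.4, 29.4, 32.6, 29.5 and 29.2 to 76.8, 70.1, 79.3, 73.3 and 67.0. In both lines every vincristine library lay above every untreated one. The log2 fold changes were 1.55 ± 0.11 (edgeR adjusted p = 3.7e-14) and 1.28 ± 0.08 (7.0e-18).

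ITGA6 (ENSG00000091409.14, chromosome 2, 172427354 to 172506282) encodes an α chain of laminin receptors. In Control gRNA it stood at 1.06, 0.344, 1.35, 0.498 and 0.834 CPM untreated and at 5.28, 4.96, 5.29, 5.91 and 5.71 with vincristine, with a wide gap between the groups (log2 2.71 ± 0.28, edgeR adjusted p = 4.5e-11). In WT the groups overlapped, with 1.82, 2.14, 1.40 and 3.08 untreated and 1.72, 2.88, 5.56 and 4.31 with vincristine. The WT change of 0.81 ± 0.27 (edgeR adjusted p = 0.019) lost its call when any of 3 of the 8 libraries was left out and in a fit of only those groups, where adjusted p reached 0.18 at most.

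ITGB8 (ENSG00000105855.9, chromosome 7, 20330702 to 20415754), which pairs with ITGAV in a receptor that activates TGF-β, stood at 77.8, 67.1, 70.3 and 72.6 CPM in untreated WT and at 114, 108, 119 and 115 with vincristine. In Control gRNA it went from 33.6, 27.0, 37.2, 30.6 and 30.9 to 60.8, 54.5, 60.2, 52.4 and 54.3. The groups were apart in both lines, and the log2 changes were 0.66 ± 0.08 (edgeR adjusted p = 7.6e-08) and 0.82 ± 0.09 (9.0e-10). Summed over all α chains, the level went from 104 ± 4.61 to 145 ± 11.5 CPM in WT (SD, n = 4) and from 144 ± 3.20 to 235 ± 6.17 in Control gRNA (n = 5).

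**Figure D2:**
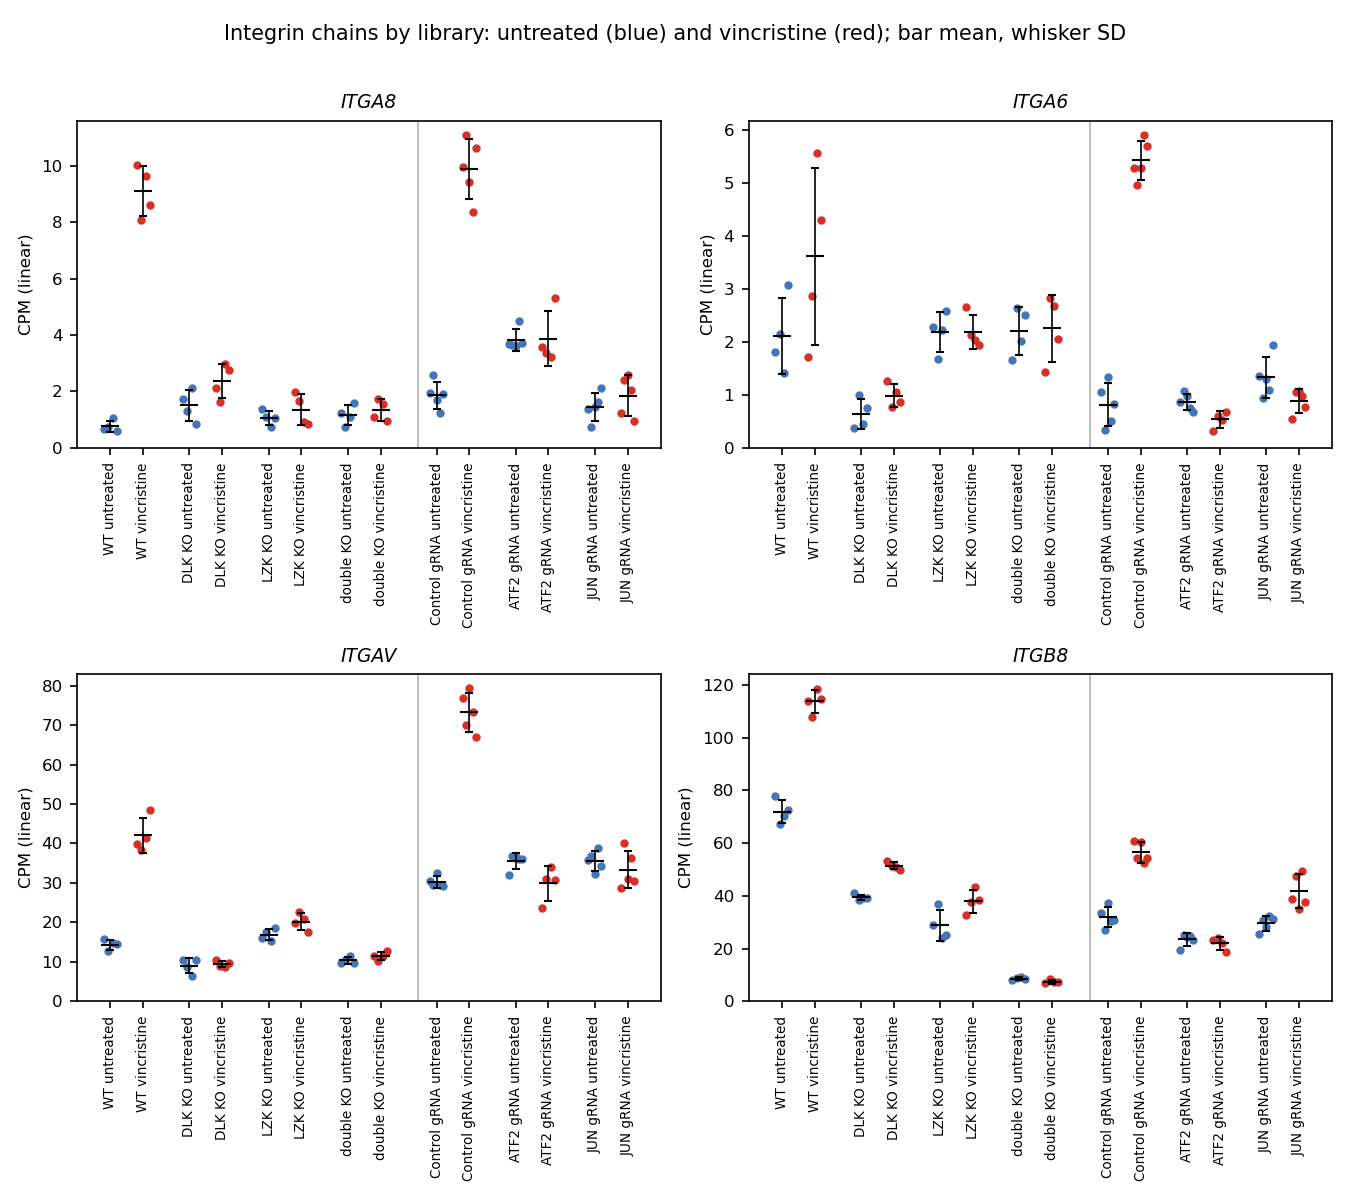
CPM (linear axes from 0) of ITGA8, ITGA6, ITGAV and ITGB8 in each library of the 14 groups, untreated in blue and vincristine in red, with group means as bars and SDs as whiskers. With vincristine ITGA8 stands at 8.09 to 11.1 CPM in WT and Control gRNA and at 5.30 or below in the other lines, and ITGB8 also steps up in DLK KO, LZK KO and JUN gRNA.

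Without WT vincristine replicate 4 the changes in WT were 3.53 ± 0.26 for ITGA8, 1.47 ± 0.11 for ITGAV, 0.73 ± 0.28 for ITGA6 and 0.65 ± 0.08 for ITGB8. All 4 were still called, ITGA6 at an edgeR adjusted p of 0.042.

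Other integrin chains were called as well. ITGB1, the partner of most α chains, fell by 0.19 on the log2 scale in WT (130 against 148 CPM) and by 0.20 in Control gRNA (110 against 126). The fall in WT lost its call when any of 6 of the 8 libraries was left out. ITGAE, the α chain known from T cells in epithelia, fell in Control gRNA from 17.7, 16.5, 16.9, 19.2 and 16.5 CPM to 14.0, 12.3, 13.6, 13.7 and 11.9, with no overlap (-0.41 ± 0.08, edgeR adjusted p = 2.7e-05). In WT it also fell (-0.32 ± 0.12), from 18.9, 17.2, 19.2 and 18.2 to 13.9, 15.3, 12.4 and 17.5, where the groups overlapped, and that call was lost in 4 of 8 omissions of a library. Control gRNA alone held further calls. The laminin receptor chains ITGA3 (42.0 to 59.5 CPM, 0.50 ± 0.08) and ITGA7 (36.5 to 53.9, 0.56 ± 0.07) rose, as did ITGA10 (a collagen receptor chain, 0.51, lost in 4 of 10 omissions of a library) and ITGB5 (0.91, lost in 6 of 10 omissions). ITGA2, another collagen receptor chain, was also among the calls, at levels near 0 (0.0109 CPM untreated and 0.249 with vincristine), and no fold is given for it. In WT the changes of ITGA3 (0.08 ± 0.12) and ITGA7 (0.34) were not called. Without WT vincristine replicate 4, ITGA7 stood at 0.51 ± 0.10 and was called (edgeR adjusted p = 9.3e-05), while ITGA3 at 0.23 ± 0.10 was still not called (0.069). ITGB1 then stood at -0.28 ± 0.07 and ITGAE at -0.41 ± 0.12, both called.

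Among the laminins called in Control gRNA the largest change was that of LAMA4 (ENSG00000112769.18, chromosome 6, 112108760 to 112254939), an α chain of vessel and nerve basement membranes. In Control gRNA it stood at 1.08, 0.317, 0.843, 0.628 and 0.816 CPM untreated and at 3.78, 3.77, 3.87, 3.54 and 5.64 with vincristine, with no overlap (2.46 ± 0.30, edgeR adjusted p = 3.7e-09). In WT the values overlapped, at 0.574, 0.932, 0.913 and 1.89 against 1.52, 0.809, 1.91 and 2.37, and the change of 0.62 ± 0.37 was not called (edgeR adjusted p = 0.22). LAMA5, the laminin α chain with the highest untreated CPM per kb, rose in Control gRNA from 86.4 to 120 CPM (0.47 ± 0.09). In WT its change of 0.32 was not called with all libraries and was called without WT vincristine replicate 4 (0.54 ± 0.12, edgeR adjusted p = 0.0012). LAMB1 fell by 0.32 in WT and by 0.14 in Control gRNA, and LAMC1 rose by 0.25 and 0.11. The call of LAMC1 in WT was lost by DESeq2, by 4 other alternatives and in 5 of 8 omissions of a library. Without WT vincristine replicate 4 the WT changes were -0.24 ± 0.07 for LAMB1 and 0.35 ± 0.09 for LAMC1, both called, and 0.41 ± 0.39 for LAMA4, not called.

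Collagens moved in both directions. COL27A1 (ENSG00000196739.14, chromosome 9, 114155560 to 114312511) stood at 23.2, 26.9, 26.3 and 33.3 CPM in untreated WT and at 21.1, 16.8, 17.8 and 11.9 with vincristine, the groups apart (-0.69 ± 0.12, edgeR adjusted p = 1.1e-05). In Control gRNA it went from 248, 235, 238, 267 and 246 to 153, 169, 179, 203 and 205, also apart (-0.44 ± 0.07, 2.0e-05). COL11A1 (ENSG00000060718.21, chromosome 1, 102876467 to 103108872) went from 41.8, 37.8, 38.8 and 35.0 to 24.9, 29.7, 25.4 and 18.8 in WT (-0.63 ± 0.13, edgeR adjusted p = 0.00017), and in Control gRNA from 3.43, 2.43, 4.84, 3.64 and 4.68 to 1.91, 1.71, 2.16, 1.65 and 2.41 (-0.97 ± 0.18, 1.6e-05). Neither pair of groups overlapped. COL26A1, a collagen with an EMI domain, fell in Control gRNA from 43.4, 49.3, 41.8, 46.7 and 39.7 to 30.3, 33.1, 31.5, 35.0 and 32.0 (-0.45 ± 0.06, edgeR adjusted p = 1.6e-07), while its WT change of -0.35 was not called. Without WT vincristine replicate 4 the WT changes were -0.57 ± 0.10 for COL27A1 and -0.53 ± 0.12 for COL11A1, both called, and -0.15 ± 0.12 for COL26A1, not called.

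The other 3 collagens that fell in WT were COL5A1, COL13A1 and COL9A2. COL5A1, a chain that sets fibril width, stood at 2.49, 3.17, 3.23 and 3.48 CPM untreated and at 2.63, 2.52, 1.91 and 0.431 with vincristine, so that the groups overlapped. Its change of -0.70 ± 0.26 was -0.40 (edgeR adjusted p = 0.17) without WT vincristine replicate 4. COL13A1, a collagen that spans the membrane and is known at the nerve-muscle synapse, stood at 4.02, 2.98, 3.72 and 4.57 CPM untreated and at 2.13, 2.70, 2.78 and 2.16 with vincristine, the groups apart. It fell by 0.63 with all libraries, and without that replicate the change was of like size but not called (-0.58 ± 0.24, edgeR adjusted p = 0.053). COL9A2, a chain found along cartilage fibrils, went from 0.287, 0.652, 1.05 and 0.894 to 0.304, 0.540, 0 and 0.216 (-1.45 ± 0.50), overlapped, and lost its call when any of 3 libraries was left out (without WT vincristine replicate 4 it was called, at -1.39). Without WT vincristine replicate 4, 14 member genes were called in WT, 11 of them among the 13 called with it, and the collagens held 3 called lower and 1 called higher (COL28A1, 0.72). In Control gRNA 5 collagens rose, among them COL1A2 (type I collagen, 0.597 to 1.5 CPM, 1.32 ± 0.39), COL6A2 (type VI, 8.24 to 14.2, 0.79 ± 0.11) and COL11A2 (6.87 to 9.55, 0.47 ± 0.11).

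Some markers of other cells also differed with vincristine. The neural progenitor list summed to 729 to 771 CPM in untreated WT and 914 to 1942 with vincristine, and to 1309 to 1398 and 2427 to 2524 in Control gRNA. Most of that sum was NES, at a mean of 717.5 and 1529 CPM in WT and 1325 and 2432 in Control gRNA. Of the list's 6 genes, 1 was called in WT and 2 in Control gRNA, all higher, with medians of 0.10 and 0.44 (log2). The peripheral neuron list went from 429 to 462 CPM down to 113 to 219 in WT and from 509 to 529 down to 220 to 244 in Control gRNA. Most of it was POU4F1 (434.9 to 177.4 and 480.6 to 202.8 CPM, group means), with 1 of 5 genes called in WT and 2 of 5 in Control gRNA, all lower, and medians of -0.15 and -0.29. The Schwann and neural crest list went from 2.87 to 5.17 CPM up to 5.82 to 8.00 in WT and from 8.57 to 10.4 up to 20.2 to 23.2 in Control gRNA, with 2 of its 5 genes under 1 CPM in every library. In WT 1 of its 3 tested genes was called higher and 1 lower (median -1.31), and in Control gRNA 1 of 4 higher (median 0.93). The epithelial list went from 4.57 to 5.56 CPM up to 10.1 to 14.9 in WT and from 3.11 to 5.19 up to 11.4 to 15.1 in Control gRNA. It had 1 gene called higher of 3 tested in WT and 1 of 4 in Control gRNA (medians 0.51 and 0.82), and KRT8 made up most of its sum (11.0 CPM with vincristine in both). The part of these cells in the changes of the matrix genes was not tested.

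The second comparison asks whether the change depended on DLK and LZK. It shared the WT libraries across the 3 knockout lines, so the 3 differences are not independent. ITGA8 and ITGAV rose less, or not detectably, in all 3. With vincristine 3 of 59 member genes were called in DLK KO, 2 higher and 1 lower (6.53% of all genes, 4.24% higher and 2.28% lower). In LZK KO 1 was called, higher (3.88% of all genes, 2.27% higher and 1.61% lower). In double KO 0 were called (0.0658% of all genes, 0.00548% higher and 0.0603% lower). For double KO, 3 members and 1096 genes had an unadjusted p under 0.05 in edgeR's test, and DESeq2 also called 0 members.

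ITGA8 stood in DLK KO at 1.72, 1.30, 2.12 and 0.861 CPM untreated and 2.14, 1.62, 2.97 and 2.76 with vincristine. In LZK KO it stood at 1.36, 1.08, 0.740 and 1.06, and at 1.99, 1.66, 0.921 and 0.847. In double KO the values were 1.25, 0.722, 1.09 and 1.58, and 1.10, 1.74, 1.56 and 0.938. In untreated WT ITGA8 stood at 0.596 to 1.05 CPM. The untreated libraries of each knockout line overlapped that range, and most of them lay above it. Untreated and vincristine libraries overlapped in each of the 3 lines, and none of the changes was called (0.63, 0.37 and 0.25). The difference from the WT change was -2.88 ± 0.39 for DLK KO (edgeR adjusted p = 8.9e-07), -3.15 ± 0.44 for LZK KO (3.5e-06) and -3.26 ± 0.41 for double KO (2.0e-07).

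ITGAV stood in DLK KO at 10.4, 8.68, 6.36 and 10.5 CPM untreated and 10.5, 9.05, 8.74 and 9.72 with vincristine. In LZK KO it went from 16.1, 17.6, 15.3 and 18.5 to 19.8, 22.6, 20.9 and 17.5, and in double KO from 9.77, 10.4, 11.4 and 9.78 to 11.6, 10.3, 11.4 and 12.9. The untreated and vincristine groups overlapped in each line. In untreated WT ITGAV stood at 12.7 to 15.7 CPM, above every untreated library of DLK KO and double KO. The differences from WT were -1.46 ± 0.17 (edgeR adjusted p = 3.7e-08), -1.28 ± 0.16 (2.4e-07) and -1.40 ± 0.16 (3.3e-08).

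ITGB8 behaved otherwise. It rose in DLK KO from 40.9, 38.5, 39.1 and 39.3 CPM to 53.1, 51.4, 50.9 and 49.9, without overlap (0.38 ± 0.09, edgeR adjusted p = 0.0066). In LZK KO it went from 29.0, 37.0, 23.9 and 25.3 to 32.6, 37.5, 43.2 and 38.5, which overlapped (0.40 ± 0.09, 0.0074), and this call was lost without LZK KO vincristine replicate 3. In double KO it stood at 7.90, 8.74, 9.14 and 8.47 untreated and 6.85, 8.57, 7.37 and 7.13 with vincristine, with no call (-0.19 ± 0.12). The difference from WT was called for double KO (-0.85 ± 0.15, edgeR adjusted p = 4.4e-05) and not for DLK KO (-0.28 ± 0.12, 0.10) or LZK KO (-0.26 ± 0.13, 0.19). Double KO also differed from DLK KO (-0.57 ± 0.15, edgeR adjusted p = 0.049), the only one of 59 members called there (1.14% of all genes, 0.126% above and 1.01% below), and that call was lost in 15 of 16 omissions of a library. For ITGA6 no difference from WT was called (-0.19 ± 0.52, -0.81 ± 0.40 and -0.76 ± 0.39), which does not show that the lines respond alike.

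In all, the change of 6 members differed between DLK KO and WT, 4 above WT and 2 below (19.4% of all genes, 9.95% above and 9.41% below). Between LZK KO and WT 3 differed, all below (12.4% of all genes, 5.88% above and 6.53% below). Between double KO and WT 6 differed, 2 above and 4 below (19.4% of all genes, 9.21% above and 10.2% below). COL27A1 was not called in DLK KO (0.01 ± 0.10) and double KO (0.03 ± 0.15), with differences from WT of 0.70 ± 0.15 (edgeR adjusted p = 0.00093) and 0.73 ± 0.19 (0.0054). COL11A1 differed by 0.67 ± 0.20 in DLK KO (lost without DLK KO vincristine replicate 3, edgeR adjusted p = 0.053) and by 0.64 ± 0.19 in double KO. For LZK KO neither difference was called (0.48 ± 0.19 for COL27A1 and 0.25 ± 0.23 for COL11A1). COL2A1, the main collagen of cartilage, stood at 0.0956, 0.652, 0.913 and 1.09 CPM in untreated WT and at 0.709, 0.360, 0.435 and 0.216 with vincristine. In DLK KO it stood at 0.574, 1.10, 0.972 and 0.430, and at 0.971, 1.79, 1.57 and 1.33. The groups overlapped in both lines. Its difference of 1.55 ± 0.52 (edgeR adjusted p = 0.032) was not called without WT vincristine replicate 4 (1.36, adjusted p = 0.072). In DLK KO 26 of 29 collagens had a positive log2 change with vincristine (median 0.35), and 1 was called, COL6A2 (6.09 to 10.3 CPM, 0.76 ± 0.17). Over all members 42 of 59 were positive there (median 0.26), and the median over all genes was -0.002.

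Leaving out WT vincristine replicate 4 raised the count for double KO against WT from 6 to 13, with all 6 kept. The 7 that joined included LAMA5 (-0.64 ± 0.17, edgeR adjusted p = 0.0059), ITGA7 (-0.48 ± 0.15), LAMC1 (-0.45 ± 0.12) and ITGB1 (0.34 ± 0.09). For DLK KO and LZK KO the counts without it were 5 and 4.

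The third comparison asks the same of ATF2 and JUN, and both differences share the Control gRNA libraries. The changes of ITGA8, ITGAV, ITGA6 and LAMA4 with vincristine lay below those in Control gRNA in both lines. That of ITGB8 lay below it with ATF2 gRNA. With vincristine 2 of 67 member genes were called in ATF2 gRNA, 1 in each direction (6.1% of all genes, 1.88% higher and 4.22% lower). In JUN gRNA 10 were called, 6 higher and 4 lower (15.9% of all genes, 7.58% higher and 8.31% lower). The change differed from that in Control gRNA for 14 members with ATF2 gRNA, 4 above and 10 below (20.6% of all genes, 10.2% above and 10.4% below). With JUN gRNA it differed for 13, 4 above and 9 below (15.8% of all genes, 8.71% above and 7.06% below).

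ITGA8 stood in ATF2 gRNA at 3.67, 3.64, 3.61, 4.51 and 3.72 CPM untreated and at 3.56, 3.36, 3.23 and 5.30 with vincristine. In JUN gRNA it stood at 1.36, 0.738, 1.43, 1.63 and 2.10, and at 1.22, 2.41, 2.59, 2.04 and 0.946. The groups overlapped in both lines. The differences from Control gRNA were -2.40 ± 0.32 (edgeR adjusted p = 7.3e-08) and -2.06 ± 0.31 (2.2e-06).

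ITGAV went from 32.0, 36.9, 36.6, 36.0 and 36.1 CPM to 23.6, 31.1, 34.1 and 30.8 in ATF2 gRNA, and from 35.8, 36.8, 32.2, 38.9 and 34.3 to 28.8, 40.0, 31.0, 36.4 and 30.4 in JUN gRNA. Both pairs of groups overlapped, and neither change was called (-0.25 ± 0.08, edgeR adjusted p = 0.062, and -0.10 ± 0.08). The differences from Control gRNA were -1.53 ± 0.11 (edgeR adjusted p = 1.9e-14) and -1.37 ± 0.11 (2.4e-13). Most untreated libraries of both lines lay above every untreated Control gRNA library.

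ITGA6 stood in ATF2 gRNA at 0.862, 1.07, 0.97, 0.752 and 0.676 CPM untreated and 0.326, 0.607, 0.531 and 0.680 with vincristine. In JUN gRNA it stood at 1.36, 0.947, 1.30, 1.09 and 1.95, and at 0.540, 1.05, 1.06, 0.976 and 0.770. All of these lay below the Control gRNA libraries with vincristine, and the differences were -3.4 ± 0.42 (edgeR adjusted p = 1.5e-08) and -3.29 ± 0.39 (7.5e-09). For ITGA6, ITGA8 and ITGAV no difference between ATF2 gRNA and JUN gRNA was called (-0.11 ± 0.41, -0.35 ± 0.32 and -0.16 ± 0.11), a comparison in which 2 members were called (2.83% of all genes, 0.91% above and 1.92% below).

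Those 2 were ITGB8 and ITGA3. ITGB8 stood in ATF2 gRNA at 19.5, 25.0, 24.5, 24.8 and 23.4 CPM untreated and 23.2, 24.1, 22.1 and 18.7 with vincristine, which overlapped. In JUN gRNA it rose from 25.4, 30.8, 28.1, 32.5 and 31.2 to 38.6, 47.7, 35.1, 49.5 and 37.6, without overlap (0.50 ± 0.09, edgeR adjusted p = 6.6e-05). Its change differed from Control gRNA in ATF2 gRNA (-0.91 ± 0.13, edgeR adjusted p = 1.4e-06) and between the 2 silenced lines (-0.59 ± 0.13, 0.0065). For JUN gRNA against Control gRNA the difference was not called (-0.33 ± 0.13, edgeR adjusted p = 0.075).

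ITGA3 went from 39.4, 40.1, 42.1, 45.0 and 43.5 CPM to 54.0, 64.1, 56.5, 60.6 and 62.1 in Control gRNA, from 24.3, 26.1, 26.4, 24.8 and 28.3 to 22.8, 29.6, 34.1 and 32.8 in ATF2 gRNA, and from 40.9, 45.4, 38.1, 37.2 and 42.7 to 34.1, 27.7, 34.6, 32.6 and 37.8 in JUN gRNA. It thus rose in Control gRNA and fell in JUN gRNA (-0.29 ± 0.08, edgeR adjusted p = 0.0059), a difference of -0.79 ± 0.11 (4.4e-07). ATF2 gRNA and JUN gRNA differed by 0.49 ± 0.11 (edgeR adjusted p = 0.0081).

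LAMA4 stood in ATF2 gRNA at 2.18, 3.85, 4.28, 4.05 and 3.93 CPM untreated and 4.76, 5.12, 2.28 and 5.08 with vincristine. Of the 5 untreated libraries of that line, 4 lay within the range of Control gRNA with vincristine. In JUN gRNA it went from 0.470, 0.341, 0.441, 0.146 and 0.258 to 0.680, 0.808, 0.817, 1.08 and 0.220, a called rise at low level (1.12 ± 0.33, edgeR adjusted p = 0.012) that was lost in 2 of 10 omissions of a library. The differences from Control gRNA were -2.22 ± 0.42 (edgeR adjusted p = 6.0e-05) and -1.33 ± 0.44 (0.031), and the second was lost in 6 of 20 omissions.

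Other laminins rose in JUN gRNA, where 4 of 11 were called and all were higher. LAMA2, the α chain of muscle and peripheral nerve basement membranes, went from 4.5, 3.24, 4.22, 5.47 and 4.31 CPM to 7.68, 8.08, 7.18, 7.06 and 6.09, with no overlap (0.73 ± 0.14, edgeR adjusted p = 0.00014). In Control gRNA it stood at 3.32, 4.29, 4.90, 3.4 and 3.46 and at 4.34, 4.25, 4.82, 4.22 and 4.02, which overlapped. The difference between the lines (0.57 ± 0.20, edgeR adjusted p = 0.048) was lost in 15 of 20 omissions. LAMC1 (59.9 to 74.3 CPM) and LAMA5 (104 to 137) rose by 0.31 ± 0.04 and 0.40 ± 0.09.

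Among collagens the fall of COL11A1 differed in ATF2 gRNA (0.96 ± 0.25, edgeR adjusted p = 0.0037), where it stood at 5.19, 6.12, 7.06, 7.90 and 9.21 CPM untreated and 6.28, 9.37, 5.75 and 6.80 with vincristine. COL27A1 in the same line stood at 316, 301, 316, 345 and 341, and at 276, 299, 307 and 313. Its difference of 0.32 ± 0.11 (edgeR adjusted p = 0.030) was lost in 10 of 19 omissions. COL6A2 rose less in both lines (-0.73 ± 0.16 in ATF2 gRNA and -0.54 ± 0.15 in JUN gRNA), as did ITGA7 (-0.45 ± 0.10 and -0.43 ± 0.10). COL5A2, a partner of COL5A1, stood in JUN gRNA at 41.4, 43.0, 42.6, 39.4 and 39.9 untreated and 46.8, 44.3, 44.6, 45.1 and 37.9 with vincristine, and in Control gRNA at 34.7, 34.6, 33.8, 37.2 and 33.4 and at 28.1, 32.1, 32.0, 30.5 and 33.1. The difference was 0.24 ± 0.07 (edgeR adjusted p = 0.017) and was lost in 4 of 20 omissions.

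**Figure D3:**
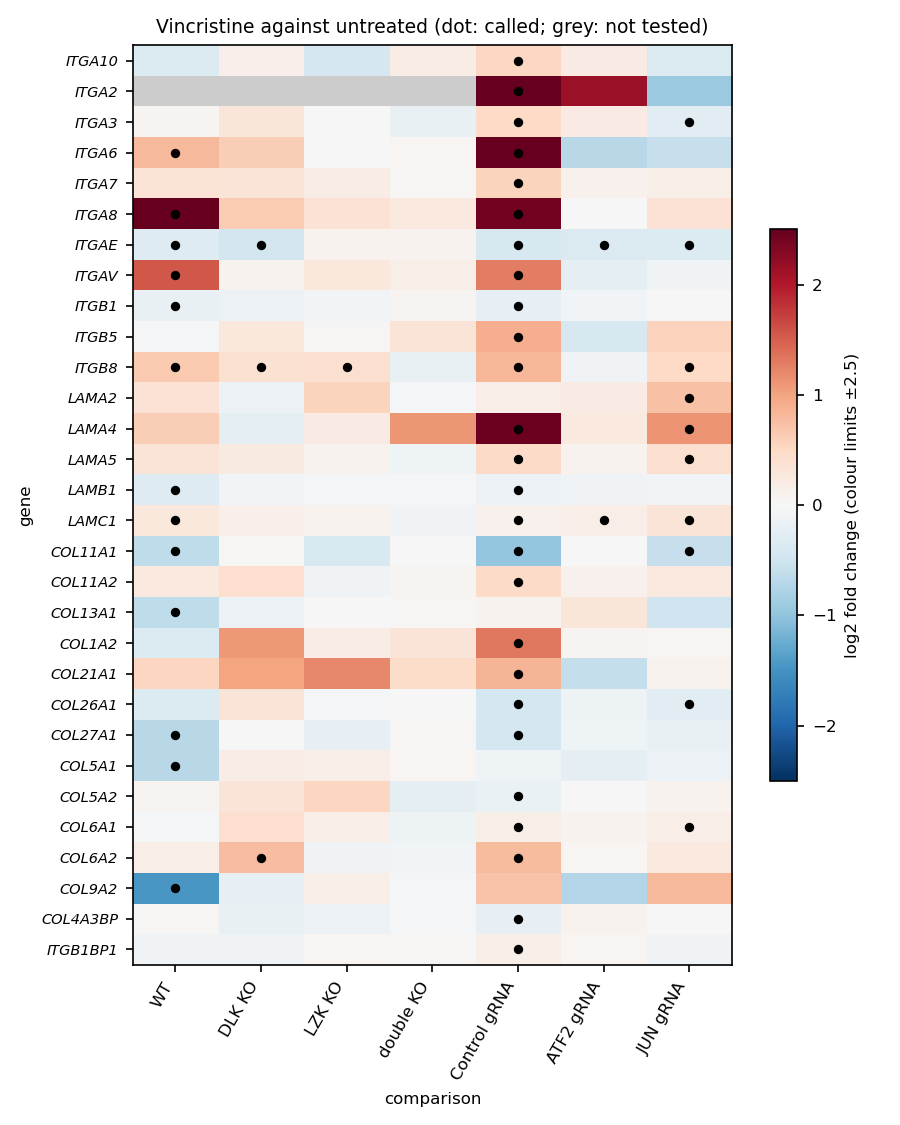
Log2 fold change of vincristine against untreated for each line (columns) and each member called in at least 1 line (rows), in colour from blue (lower) to red (higher) within limits of 2.5. Dots mark calls and grey marks genes not tested. The dots are dense for WT (13) and Control gRNA (26), fewer for JUN gRNA (10), and number 3, 1, 0 and 2 for DLK KO, LZK KO, double KO and ATF2 gRNA.

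The fourth comparison sets the untreated lines against their controls. Before any drug, the knockout lines differed from WT in many of these genes, with COL19A1, COL4A1, COL4A2 and LAMA1 higher and ITGB8 and COL11A1 lower in more than 1 of them. In DLK KO 29 of 59 members were called, 17 higher and 12 lower (34.5% of all genes, 16.5% higher and 17.9% lower). In LZK KO 24 were called, 11 higher and 13 lower (33.9% of all genes, 17.1% higher and 16.8% lower). In double KO 39 were called, 19 higher and 20 lower (45.7% of all genes, 23.6% higher and 22.1% lower). The 3 comparisons share the untreated WT libraries. Collagens, 29 of the 59 members tested, made up 13, 13 and 21 of these calls. All 5 laminins called in DLK KO were higher, while 7 of the 8 α chains called in double KO were lower.

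COL19A1 (ENSG00000082293.12, chromosome 6, 69866571 to 70209976), a collagen of basement membrane zones, stood at 3.44, 5.41, 6.32 and 4.57 CPM in untreated WT. It stood at 80.1, 66.6, 83.7 and 76.9 in LZK KO and at 59.6, 62.5, 67.4 and 64.4 in double KO, but at 4.97, 4.69, 3.89 and 2.37 in DLK KO. LZK KO and double KO lay apart from WT and DLK KO overlapped it, with log2 differences of 3.94 ± 0.14 (edgeR adjusted p = 6.1e-23) and 3.66 ± 0.14 (2.0e-22). LAMA1, an α chain known from the early embryo, went the same way, with 2.49, 2.80, 2.53 and 3.78 in WT and 23.5, 23.7, 24.1 and 20.2 in LZK KO (2.99 ± 0.16). Double KO had 11.7, 13.2, 13.8 and 12.9 (2.17 ± 0.16). DLK KO had 3.44, 3.99, 3.27 and 3.12, which overlapped WT, and was not called.

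COL27A1 moved in opposite directions. It stood at 135, 153, 130 and 152 CPM in DLK KO against 23.2 to 33.3 in WT (2.38 ± 0.11, edgeR adjusted p = 9.7e-20). In LZK KO it stood at 9.67, 10.7, 10.6 and 9.30 (-1.44 ± 0.12) and in double KO at 6.34, 6.74, 6.96 and 5.68 (-2.08 ± 0.13). No knockout library overlapped WT. COL11A1 was lower in all 3, at 11.1, 8.18, 8.57 and 8.61 in DLK KO (-2.07 ± 0.14), at 6.71, 7.34, 5.09 and 4.24 in LZK KO (-2.72 ± 0.15) and at 13.9, 14.6, 20.0 and 16.2 in double KO (-1.24 ± 0.13), each apart from WT at 35.0 to 41.8.

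COL4A1 and COL4A2, the chains of the common type IV network of basement membranes, whose genes share a promoter region, were higher in all 3 lines. COL4A1 stood at 2.49, 1.77, 1.62 and 2.68 CPM in WT, at 4.21, 5.98, 5.75 and 5.38 in DLK KO, at 8.30, 7.34, 9.25 and 7.18 in LZK KO and at 16.3, 17.1, 14.4 and 19.2 in double KO, with no overlap with WT. The log2 differences were 1.34 ± 0.17, 1.93 ± 0.17 and 2.99 ± 0.15 for COL4A1 and 0.85, 2.07 and 2.08 for COL4A2. Double KO was also higher in COL13A1 (3.82 to 21.4 CPM, 2.49), COL15A1 (2.49), COL9A3 (2.50), COL18A1 (1.56) and LAMA2 (4.45 to 23.4, 2.38 ± 0.16), of which COL15A1 and COL18A1 are basement membrane collagens. LAMA2 was also higher in DLK KO (7.06 CPM, 0.65) and was lower in LZK KO (2.73 CPM, -0.73).

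ITGB8 was lower in all 3 lines and lowest in double KO, at 7.90 to 9.14 CPM against 67.1 to 77.8 in WT (-3.06 ± 0.10, edgeR adjusted p = 5.0e-24). It stood at -0.87 ± 0.09 in DLK KO and at -1.33 ± 0.09 in LZK KO, and the libraries of each line were apart from WT. ITGA9, a receptor chain for tenascin, was higher in all 3 (3.65 CPM in WT against 8.17, 7.08 and 11.7). ITGA7 was lower in all 3, with the call in DLK KO lost in 2 of 8 omissions. ITGBL1, a secreted protein with repeats like those of integrin β chains, stood at 2.20, 3.45, 2.74 and 4.87 CPM in WT and at 0.765, 0.798, 0.354 and 0.861 in DLK KO (-2.25 ± 0.33), with no overlap. COL17A1, a membrane collagen of epithelial anchoring, stood at 0.0956, 0.746, 0.913 and 1.89 in WT and at 0.114, 0, 0.185 and 0 in LZK KO, a called difference at very low counts (-3.28 ± 0.86, edgeR adjusted p = 0.0027) with overlapping groups.

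Some members lie where neighbouring genes were shifted as well. In untreated DLK KO the other tested genes within 5 Mb of ITGA6 had a median log2 difference from WT of -0.90 (64 genes), beside -1.69 for ITGA6. Around ITGAV the median was -0.74 (45 genes), beside -0.68 for ITGAV, and around COL4A3BP, which encodes a ceramide transfer protein and no collagen, -0.86 (66 genes) beside -0.93. COL5A2 and ITGA1 were higher by 1.01 and 1.00 among neighbours with medians of -0.75 and -0.71. In double KO the neighbours of LAMA5 on chromosome 20 had a median of 0.64 (84 genes) beside 0.47 for LAMA5, and those of COL9A3 0.62 beside 2.50. The part of these shifts in the members' own values was not tested.

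**Figure D4:**
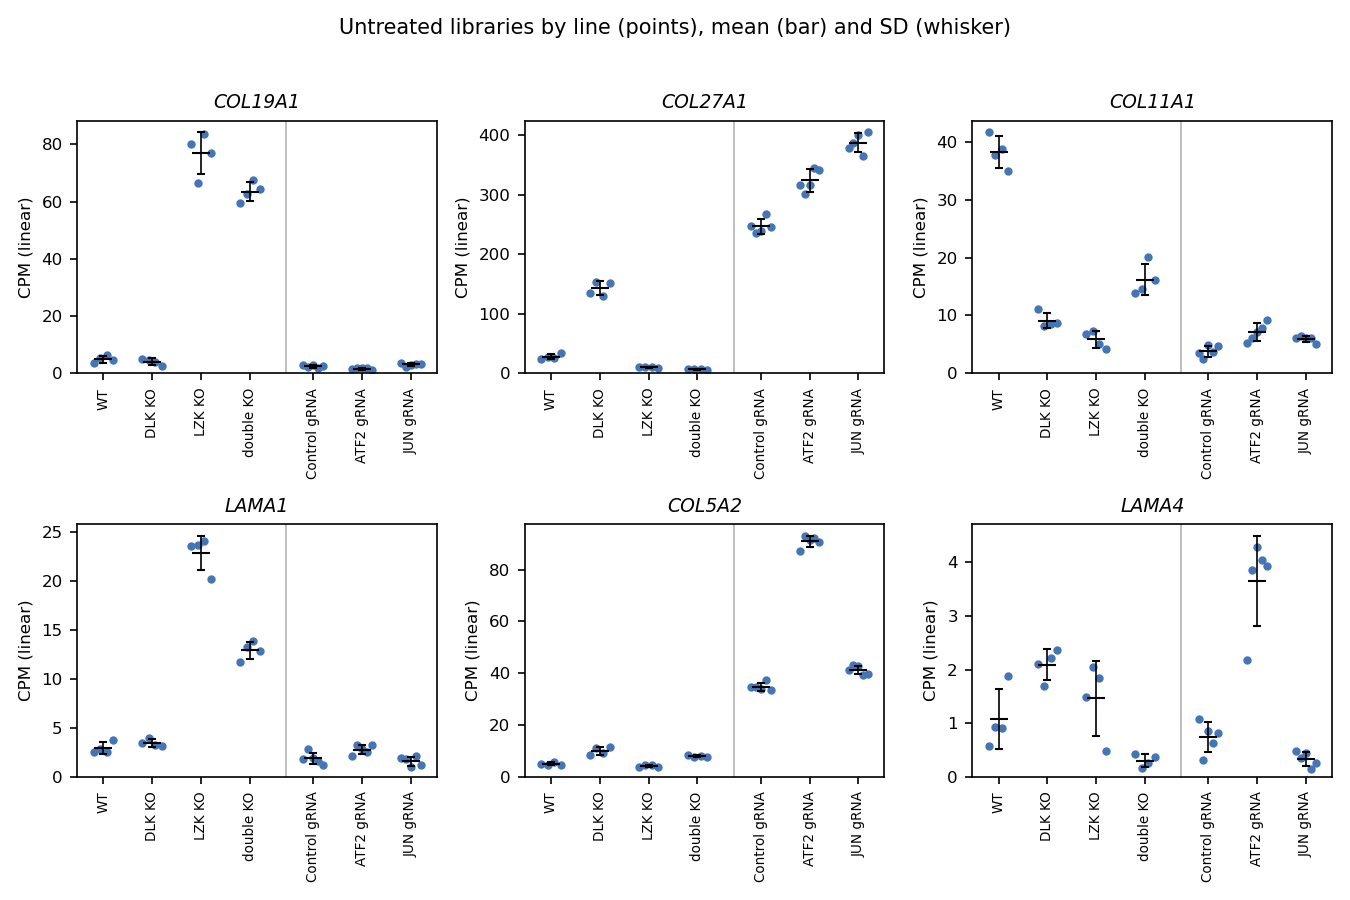
CPM of COL19A1, COL27A1, COL11A1, LAMA1, COL5A2 and LAMA4 in each untreated library by line, with means as bars and SDs as whiskers, on linear axes from 0. COL19A1 and LAMA1 are high in LZK KO and double KO, COL27A1 is high in DLK KO (130 to 153), and COL5A2 and LAMA4 are high in ATF2 gRNA.

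ATF2 gRNA differed from Control gRNA in 35 of 67 members, 21 higher and 14 lower (39.9% of all genes, 19.7% higher and 20.2% lower). Among them were 18 of the 33 collagens and 6 of the 11 laminins tested. Of the 6 laminins called, 5 were higher. LAMB1 went from 115 to 135 CPM (0.23 ± 0.04, edgeR adjusted p = 3.0e-05). LAMC1 went from 65.4 to 129 CPM (0.98 ± 0.04, edgeR adjusted p = 1.3e-25), LAMA5 from 86.4 to 163 (0.91 ± 0.09) and LAMA4 from 0.317 to 1.08 up to 2.18 to 4.28 (2.29 ± 0.30), and the groups of all 4 were apart. The summed laminin level was 444 ± 17.1 CPM in ATF2 gRNA and 284 ± 9.49 in Control gRNA (SD, n = 5). COL5A2 stood at 87.2, 92.9, 91.6, 92.3 and 90.7 CPM in ATF2 gRNA against 33.4 to 37.2 in Control gRNA (1.39 ± 0.05, edgeR adjusted p = 3.0e-26), whereas its partner COL5A1 was lower (4.53 against 10.6 CPM, -1.23 ± 0.18).

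ITGA8 was higher in ATF2 gRNA before any drug (3.61 to 4.51 against 1.23 to 2.57 CPM, 1.05 ± 0.22, edgeR adjusted p = 0.00011), and ITGA3 lower (-0.69 ± 0.08). COL21A1, a collagen of the fibril-associated kind, stood at 1.13, 0.648, 0.586, 0.707 and 0.275 against 3.76, 3.70, 3.11, 2.51 and 3.93 CPM (-2.35 ± 0.35, edgeR adjusted p = 5.4e-07). ITGA11, an α chain of collagen receptors, stood at 0.227, 0.286, 0.439, 0.436 and 0.528 against 1.25, 1.56, 0.991, 1.80 and 1.45 (-1.86 ± 0.42, 0.00030). Neither gene's groups overlapped.

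JUN gRNA differed from Control gRNA in 13 of 67 members, 5 higher and 8 lower (11.2% of all genes, 5.78% higher and 5.46% lower). COL27A1 was higher, at 378, 387, 400, 365 and 404 CPM against 235 to 267 (0.65 ± 0.07, edgeR adjusted p = 2.9e-07). COL11A1 was higher too, at 6.16, 6.36, 6.03, 6.03 and 5.04 against 2.43 to 4.84 (0.63 ± 0.17), a call lost without Control gRNA untreated replicate 2. COL21A1 was lower, at 0.674, 0.985, 0.810, 1.38 and 1.35 (-1.71 ± 0.33), and so was ITGB5, a partner of ITGAV, at 0.549, 0.454, 0.191, 0.437 and 0.377 against 1.66, 0.926, 0.636, 1.60 and 0.888 (-1.51 ± 0.37, edgeR adjusted p = 0.0037). The groups were apart for each of these 4 genes.

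**Figure D5:**
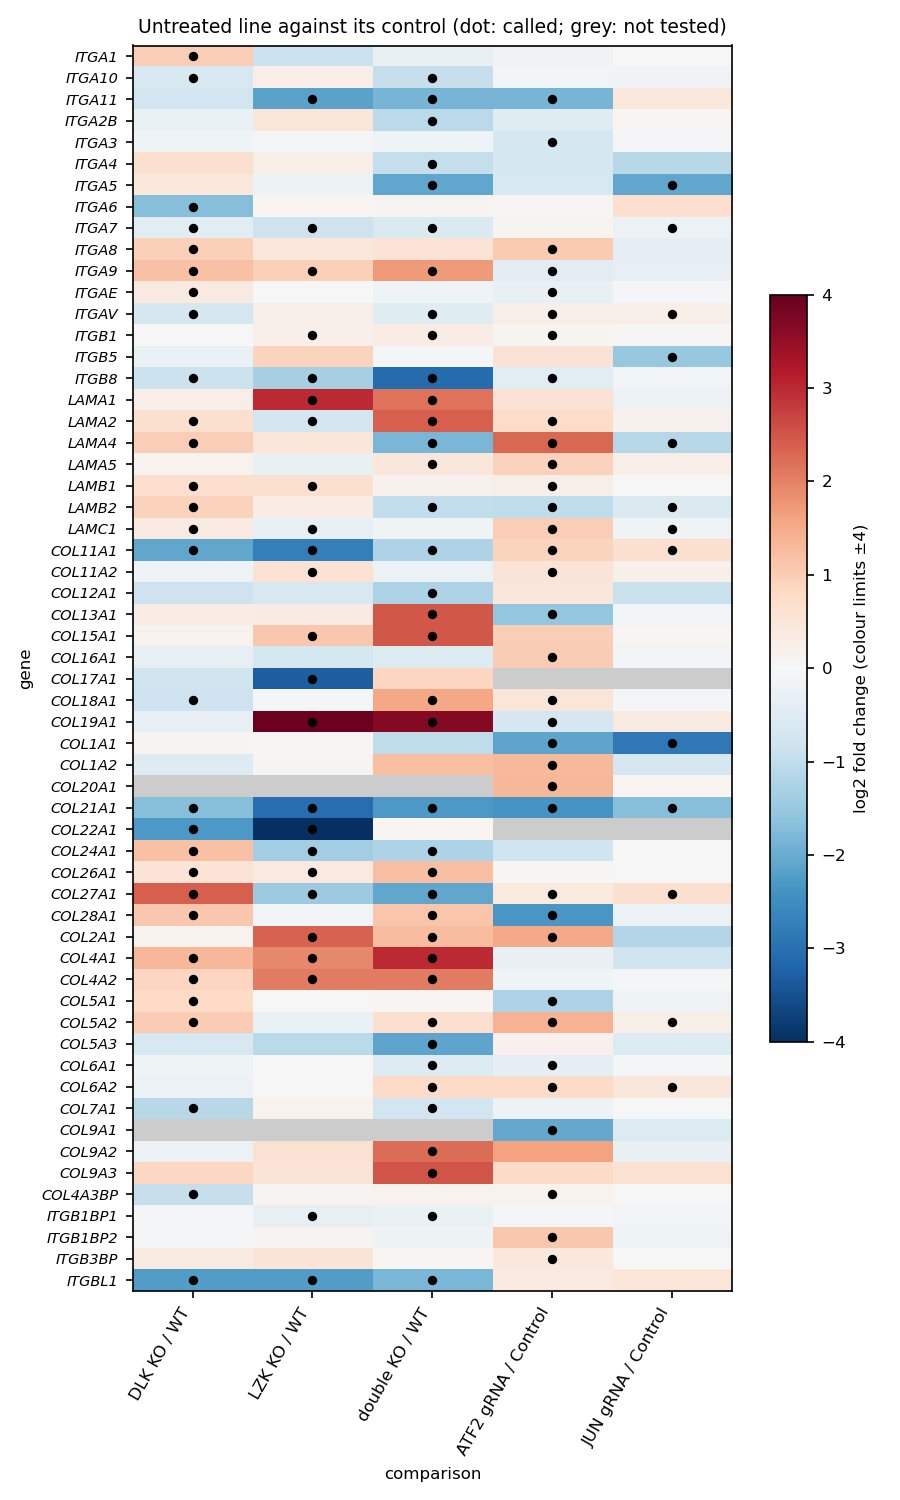
Log2 difference of each untreated line from its control (columns) for members called in at least 1 of these comparisons (rows), in colour within limits of 4, with dots for calls and grey for genes not tested. Calls number 29, 24 and 39 for DLK KO, LZK KO and double KO, and 35 and 13 for ATF2 gRNA and JUN gRNA, and 1 called gene is not drawn. COL27A1 is red in DLK KO and blue in LZK KO and double KO.

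Marker lists differed between untreated lines as well. The pluripotent list summed to 54.0 to 59.9 CPM in double KO against 3.37 to 4.67 in WT, with 2 of its 6 genes under 1 CPM in every library and 2 of 3 tested called higher (median 1.03). Most of that sum was LIN28A, whose highest group mean in experiment 1 was 54.99 CPM. DPPA4 reached 4.225 CPM there, and POU5F1, NANOG, TDGF1 and L1TD1 at most 0.9945. The pluripotent list was also above WT in DLK KO (11.2 to 14.6 CPM) and LZK KO (13.6 to 19.1). In ATF2 gRNA it summed to 33.9 to 40.4 CPM and in JUN gRNA to 17.5 to 19.2, against 10.3 to 13.5 in Control gRNA. The dividing cell list summed to 63.6 to 71.7 in LZK KO against 10.8 to 12.4 in WT, with 5 of 5 called higher (median 3.70). It summed to 17.6 to 18.9 CPM in DLK KO and to 23.5 to 30.9 in double KO. In ATF2 gRNA the epithelial list summed to 29.2 to 32.1 CPM against 3.11 to 5.19 in Control gRNA. KRT8 alone was called of its 4 genes (means of 29.7 against 2.99 CPM, list median 0.25), and the other 3 had group means of at most 0.947 CPM in experiment 2. The fibroblast list summed to 6.29 to 7.47 against 0.609 to 1.41, with 5 of its 7 genes under 1 CPM in every library and 2 of 4 tested called higher (median 1.82). Their part in the levels of the matrix genes was not tested.

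Genes that work with these chains were followed as 3 lists. Of 21 tested ligands and linkers of the matrix, 7 were called with vincristine in WT (4 higher; 30.2% of all genes were called), and of 23 in Control gRNA 13 (8 higher; 35.3% of all genes). TNC, a matrix protein bound by ITGAV and ITGA9 integrins, rose by 1.31 ± 0.14 in WT and 2.52 ± 0.10 in Control gRNA, and THBS2, a thrombospondin, by 2.09 ± 0.19 and 2.63 ± 0.14. Both changes lay below those in Control gRNA for ATF2 gRNA (TNC -2.42 ± 0.15 and THBS2 -2.94 ± 0.24) and JUN gRNA (-1.17 ± 0.16 and -1.49 ± 0.20). In double KO the differences from WT were -1.50 ± 0.21 and -2.21 ± 0.43. Neither gene was called higher with vincristine in ATF2 gRNA or double KO. For DLK KO against WT the difference was called for THBS2 (-1.26 ± 0.36, edgeR adjusted p = 0.012) and not for TNC (-0.49 ± 0.19, 0.063). In LZK KO both rose (1.13 ± 0.18 and 1.81 ± 0.30), and the differences from WT were not called (-0.19 ± 0.24 and -0.29 ± 0.38). NPNT, nephronectin itself, rose in Control gRNA by 1.98 ± 0.71, the largest SE given here for a gene of these 3 lists. Omissions of a library were followed for members only, so the stability of this value was not tested.

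Of the proteins that couple integrins to actin, 10 of 28 were called in WT (7 higher; 30.2% of all genes) and 18 of 31 in Control gRNA (14 higher; 35.3% of all genes). ZYX, the focal adhesion protein zyxin, rose by 0.97 ± 0.15 and 0.92 ± 0.07, and TNS1, tensin, by 1.01 ± 0.26 and 0.99 ± 0.11. With vincristine 3 of 28 were called in DLK KO (6.53% of all genes) and 2 in LZK KO (3.88%), and of 31 in experiment 2 there were 4 in ATF2 gRNA (6.1%) and 10 in JUN gRNA (15.9%). In double KO edgeR called 0 genes of the 3 lists, and 0 had an unadjusted p under 0.05 (0.0658% of all genes were called). DESeq2 was not counted over these lists. Of the enzymes and chaperones that make and crosslink collagen, 10 of 26 were called in WT (6 lower), and 19 of 29 in Control gRNA (10 lower), beside the same shares of all genes (30.2% and 35.3%). PPIB, a prolyl isomerase of the collagen folding complex, fell by 0.70 ± 0.09 in WT, and P4HA2, a prolyl hydroxylase chain, rose by 0.92 ± 0.14 in Control gRNA.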

How the data were processed

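RNA-seq was measured in 61 libraries in 14 groups. The authors deposited raw read counts per gene, with GENCODE identifiers and lengths. Per the submitters' processing notes, cutadapt 3.4, STAR and featureCounts (Subread 2.0.1) were used with GRCh38. The strand setting is not given in the sources used here, so reads of overlapping genes on opposite strands cannot be told apart.

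Symbols came from GENCODE 29. The members and the other gene lists were chosen with earlier results of these data known. Each experiment was fitted with all its groups at once in R 4.3.3 by edgeR 4.0.16 (filterByExpr, TMM, robust quasi-likelihood, two-sided), which left 18235 genes in experiment 1 and 20759 in experiment 2. P-values were adjusted by Benjamini-Hochberg over all genes tested, and genes were called under 0.05. Differences in effect were interaction terms. SE was the absolute log2 fold change over the square root of F. CPM used TMM-scaled library sizes.

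ITGA8 was named in every library, as were called members with the highest and lowest log2 changes. These were the 4 highest and 4 lowest with vincristine in WT and in Control gRNA. For each difference in effect and each untreated comparison they were the 2 highest and 2 lowest. A mean log2 CPM of at least 0 was required of them. Other members called in more than 3 comparisons or with high CPM per kb, and up to 4 examples per other list, were given by group means. Further members, such as COL1A2, COL15A1 and ITGA2, were named outside this rule. The alternatives were DESeq2 1.42.0, RLE factors, all genes kept, a mean of 1 CPM as the filter, the replicate number as a block, separate fits of the groups compared, GC content offsets, and leaving out each library. Scripts were tested on simulated data. Chi-square values of the counts found no 2 libraries of a group that agreed within sampling noise (48 and 56 pairs). One member enters the counts but is not reported here by name. Reads shared between paralogous chains were not checked.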

Additional observations from a re-analysis of the deposited data

Results flagged for a closer look

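The change with vincristine differed between lines, by edgeR's interaction test, in 45 cases over 24 member genes, of which 1 case is not reported here. All values are differences on the log2 scale, and lines of an experiment share their control libraries. Against WT, DLK KO differed by -2.88 in ITGA8, LZK KO by -3.15 and double KO by -3.26. ITGAV differed by -1.46, -1.28 and -1.40 in the same order. For DLK KO and double KO, COL11A1 differed by 0.67 and 0.64 and COL27A1 by 0.70 and 0.73. In DLK KO the others were COL26A1 at 0.67 and COL2A1 at 1.55. In LZK KO the other was ITGA2B at -1.02, a call lost in 11 of 16 omissions of a library. In double KO the others were COL28A1 at -1.01 and ITGB8 at -0.85, and double KO differed from DLK KO in ITGB8 at -0.57.

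Against Control gRNA, the larger differences in ATF2 gRNA were ITGA6 at -3.4, ITGA8 at -2.40, LAMA4 at -2.22 and ITGAV at -1.53. COL21A1 stood at -1.44, ITGB8 at -0.91, COL6A2 at -0.73, ITGA7 at -0.45 and LAMA5 at -0.38. Positive differences were COL11A1 at 0.96, COL26A1 and COL27A1 at 0.32 each, and COL4A3BP at 0.29. In JUN gRNA they were ITGA6 at -3.29, ITGA8 at -2.06, ITGAV at -1.37, LAMA4 at -1.33, ITGA10 at -0.88, ITGA3 at -0.79, COL6A2 at -0.54, ITGA7 at -0.43 and ITGB1BP1 at -0.22. Those above 0 were LAMA2 at 0.57, COL5A2 at 0.24, LAMC1 at 0.20 and ITGB1 at 0.18. ATF2 gRNA differed from JUN gRNA in ITGB8 at -0.59 and ITGA3 at 0.49.

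Single libraries stood far from the rest of their group in 16 of 242 groups of values (6.61%), by Dixon's test on group means of at least 1 CPM, and chance flags about 1 in 20. In experiment 1, COL11A1 stood at 11.1 CPM in DLK KO untreated replicate 1, ITGAE at 17.7 in double KO untreated replicate 1, LAMA1 at 4.56 in DLK KO vincristine replicate 1, and LAMA1 at 20.2 in LZK KO untreated replicate 4. In ATF2 gRNA, untreated replicate 1 was low for ITGAV (32.0) and LAMA4 (2.18), untreated replicate 4 high for ITGA8 (4.51), vincristine replicate 4 low for LAMA4 (2.28) and vincristine replicate 5 high for ITGA8 (5.30). In JUN gRNA, vincristine replicate 2 was high for COL19A1 (3.28) and ITGA11 (3.44) and low for ITGAE (11.7), vincristine replicate 5 low for COL5A2 (37.9), and untreated replicate 5 low for COL11A1 (5.04). In Control gRNA with vincristine, ITGB5 stood at 2.85 in replicate 3 and LAMA4 at 5.64 in replicate 5.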

How the results depend on the processing

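Of 240 called pairs of a member and a comparison, 170 kept their call in every alternative that tested them and 175 in every omission of a library, and none reversed. ITGA8 and ITGAV with vincristine in WT and Control gRNA, and their differences between lines, kept theirs throughout. Calls lost were 3 by DESeq2 (with 1 adjusted p not given), 4 with RLE factors, 13 with GC offsets, 24 with no filter, 22 in fits of only the groups compared and 0 of 217 with the 1 CPM filter.

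Counts of called members moved by over 1.5 times as follows. In fits of only the groups compared, WT with vincristine had 7 called, DLK KO 11, LZK KO 0 and ATF2 gRNA 1, and double KO differed from DLK KO in 12. With GC offsets, 2 were called in LZK KO and 4 in ATF2 gRNA with vincristine, 7 between LZK KO and WT, 10 between double KO and WT and 2 between double KO and DLK KO. DESeq2 called 5 in DLK KO with vincristine. For double KO against DLK KO it called 3, no filter gave 2 and RLE factors gave 0. The cause was not tested.

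Leaving out 1 library gave WT 7 to 14 calls with vincristine (7 without WT untreated replicate 3, 8 without WT vincristine replicate 3), DLK KO 3 to 3, LZK KO 0 to 2, double KO 0 to 0, 22 to 26 in Control gRNA, 2 to 3 in ATF2 gRNA and 8 to 11 in JUN gRNA. For differences from WT the ranges were 4 to 11 in DLK KO and 2 to 5 in LZK KO (11 and 5 without WT untreated replicate 1) and 5 to 13 in double KO (13 without WT vincristine replicate 4), and 0 to 1 between double KO and DLK KO. From Control gRNA they were 10 to 15 for ATF2 gRNA and 10 to 14 for JUN gRNA, and 2 to 3 between those lines. Untreated, DLK KO had 23 to 27, LZK KO 21 to 23 and double KO 36 to 39, with 31 to 34 in ATF2 gRNA and 8 to 13 in JUN gRNA (8 without JUN gRNA untreated replicate 4).

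The replicate numbers did not pair the libraries: deviations of same-numbered libraries of a line correlated over 0.1 in 1 of 16 pairs in experiment 1 and 0 of 14 in experiment 2. With the replicate number as a block 11 of 240 calls were lost, and the count between double KO and DLK KO was 0. Experiment 1 held fewer counts per library, and members under about 1 CPM rest on few reads there.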
